A study of Mus musculus with 16 samples.

Results

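The genes described here are 37 mouse genes of the DNA damage response and DNA repair, out of 17655 gene symbols listed for each sample. They were chosen by name for their known roles, but with earlier results of these data known. They fall into 8 groups: damage sensing and checkpoint, homologous recombination, RecQ helicases, non-homologous end joining, single-strand break repair, the Fanconi anaemia pathway, mismatch repair and nucleotide excision repair. RNA was sequenced from cultured preSC, which stand for a stage before small cell lung cancer; the labels call them lung neuroendocrine cells positive for Chga. All cells in both groups are null for Rb1 and for Trp53 and heterozygous null for Rbl2. One group carried an empty lentiviral control (8 samples, "empty") and the other a lentivirus with Wnt5a, a secreted Wnt ligand (8 samples, "Wnt5a"), and doxycycline (1 µg/mL) was given to both for the last 48 hours. The labels do not say whether the cells are 1 clone or whether the samples came from separate cultures, so the tests measure the spread between these libraries, which may be technical.

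Cells detect broken DNA with the kinases Atm, which responds to double-strand breaks, and Atr, which responds to single-stranded DNA at stalled replication forks. These activate Chek2 and Chek1, which hold the cell cycle, and breaks are then repaired either by copying an intact sister (homologous recombination) or by rejoining the ends (non-homologous end joining). In cells without p53 and the retinoblastoma protein, the G1 arrest that these proteins enforce is lost, and many repair genes are transcribed in S phase under E2F factors, which the retinoblastoma protein normally restrains.

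The deposited values are normalised read counts, 1 value per gene and sample. Samples 1 to 4 of a group differed from each other by about sampling noise, as did samples 5 to 8, so each set of 4 was averaged and counted as 1 library. The libraries are called A (samples 1 to 4) and B (samples 5 to 8), with n = 2 libraries per group and 30220749 to 35315408 recovered reads per library. Wnt5a was at 144 and 99.8 in empty A and B and at 1049 and 1509 in Wnt5a A and B, so the libraries follow their labels. Rb1 (3169 to 3229 in the 4 libraries), Trp53 (64.8 to 97.3) and Rbl2 (317 to 369) all had reads; with no library from intact cells, these levels do not check the deletions. All 11 neuroendocrine markers had reads in every library, with Chga between 3007 and 4370. Of the markers of other cell types, 1 fibroblast gene, Dcn, was at 597 and 340 in the empty libraries and 241 and 246 in the Wnt5a libraries, while the other 4 listed (Col1a1, Col1a2, Col3a1 and Pdgfra) stayed under 10 in every library, and those of leukocytes, endothelium and lung epithelium stayed under 50 in sum in every library. Of the 11 neuroendocrine markers 1 was higher in Wnt5a, with a median log2 difference of -0.12. By limma 1, Scg2, passed an adjusted p of 0.05, where 2.06% of all tested genes did. With the letter A or B as a block, called the replicate block, 5 passed, all lower, where 17.0% of all tested genes did. Of these 5, Scg2 (-0.73) and Resp18 (-0.50) lie on chromosome 1, where the median of all tested genes was -0.17. Chga, Uchl1 and Calca lie on other chromosomes. Rhoa, a gene the labels do not mention and chosen after its values were seen, was at 4.69 and 0.761 in empty and at 513 and 507 in Wnt5a, so the groups differ in Rhoa as well as in Wnt5a, and these cannot be told apart below. The part of the neuroendocrine markers and Dcn in the results was not tested.

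Promoter sequences from 250 bases before to 50 bases after the start of transcription were matched in RefSeq (GRCm38.p6) for 30 of the 37 genes, with 34 promoters among them. An E2F motif, searched as TTTGGCGC, TTTCGCGC, TTTCCCGC or TTTGCCGC on both strands, was found in 7 of the 34 promoters (20.6%), against 4.0% of the 12674 promoters of all tested genes and 9.09% of the 99 promoters of other repair genes. The CCAAT box, searched as CCAAT on both strands, was in 52.9% of the 34 promoters and 38.0% of the promoters of tested genes. It was in 54.5% of the 99 promoters of other repair genes. Of 17 promoters of the proliferation markers described below, 29.4% held an E2F match and 82.4% a CCAAT box, so neither motif is particular to the 37 genes. The 7 promoters with an E2F match belong to 6 of the 30 genes, and the others had no match. Each match is shown with 10 bases on each side because the motif was not used to choose the 37 genes. Capitals mark the E2F motif, read 5′ to 3′ on the gene's own strand.
Brca2: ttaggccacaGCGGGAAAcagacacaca
Chek2: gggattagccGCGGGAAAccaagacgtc
Msh6: tcctcccgacTTTCCCGCcagcggcggc
Rad51c, downstream start: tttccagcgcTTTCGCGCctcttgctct
Rad51c, upstream start: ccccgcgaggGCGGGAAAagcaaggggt
Topbp1: cgctcggttgGCGCGAAAgtcggttccc
Xrcc6: gggggtggaaGCGGGAAAtgcgagtggg
The promoters that hold them are chr5:150522371-150522670 (Brca2, + strand), chr5:110839733-110840032 (Chek2, + strand), chr17:87974800-87975099 (Msh6, + strand), chr11:87404457-87404756 and chr11:87404905-87405204 (Rad51c, - strand), chr9:103305077-103305376 (Topbp1, + strand) and chr15:82016119-82016418 (Xrcc6, + strand). A match is a description of the letters and does not show that a factor binds there.

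Of the 37 genes, 4 have 2 promoters in the table, and of these 4 Rad51c alone had a match at both. Its promoters are given in full, with the motif in capitals as above, because its difference between the groups had the smallest adjusted p of the 36 genes tested by limma without the replicate block.
Rad51c, chr11:87404457-87404756: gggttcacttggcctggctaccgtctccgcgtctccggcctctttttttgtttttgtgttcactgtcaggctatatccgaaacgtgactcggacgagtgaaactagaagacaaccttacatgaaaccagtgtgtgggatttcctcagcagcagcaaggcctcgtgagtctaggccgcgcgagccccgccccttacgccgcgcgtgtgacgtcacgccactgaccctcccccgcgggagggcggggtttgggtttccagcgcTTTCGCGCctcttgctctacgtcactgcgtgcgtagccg
Rad51c, chr11:87404905-87405204: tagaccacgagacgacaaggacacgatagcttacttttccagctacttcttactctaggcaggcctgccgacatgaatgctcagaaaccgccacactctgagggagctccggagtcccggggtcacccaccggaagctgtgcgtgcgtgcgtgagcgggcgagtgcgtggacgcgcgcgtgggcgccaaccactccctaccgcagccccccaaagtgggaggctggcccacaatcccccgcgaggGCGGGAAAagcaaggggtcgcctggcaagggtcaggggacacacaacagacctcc

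All 37 genes had reads in both groups, and 36 passed the filter for testing, a mean normalised count of at least 10. To compare one gene with another, values were divided by the length of the longest annotated transcript (GENCODE M21) and are given per kilobase. On that scale Parp1, the enzyme that binds DNA nicks and builds poly(ADP-ribose) chains there, was the highest in empty cells at 676 ± 11.9 per kilobase (SD, n = 2). Msh6, a subunit of the mismatch sensor, followed at 297 ± 16.5, and Topbp1, the activator of Atr, at 285 ± 11.2. The empty libraries of Msh6 and Topbp1 overlap, so these neighbours are not separated. Xrcc5, the Ku80 subunit that holds broken ends, stood at 227 ± 2.50 and Xrcc1, the scaffold of single-strand break repair, at 217 ± 7.09.

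The lowest gene was Rad51b, which helps to start strand exchange, at 3.30 ± 1.21 per kilobase. It rested on 33 and 21 reads in empty A and B and 43 reads in each Wnt5a library, and its normalised counts of 9.10 and 5.35 in empty and 10.1 in both Wnt5a libraries left it below the filter. Next came Rad52 at 18.0 ± 0.698, Palb2 at 18.3 ± 1.03, Xrcc3 at 24.1 ± 6.77 and Brca2 at 27.0 ± 1.71, all of homologous recombination. Rad52 anneals single strands, Palb2 joins Brca1 to Brca2, Xrcc3 acts with Rad51c in strand exchange, and Brca2 is a mediator of the same step. Of the 36 neighbouring pairs in the full order of levels, 24 had empty libraries that overlap. The order depends on the length used: Brca2 ranked 33 of 37 by the longest transcript and 16 by the median transcript length, and the 2 orders had a Spearman correlation of 0.71 across the 37 genes. The median of the 36 tested genes was 76.5 per kilobase, against 95.4 over 12297 tested genes with a length, and 14 of the 36 lay above the latter.

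**Figure D1:**
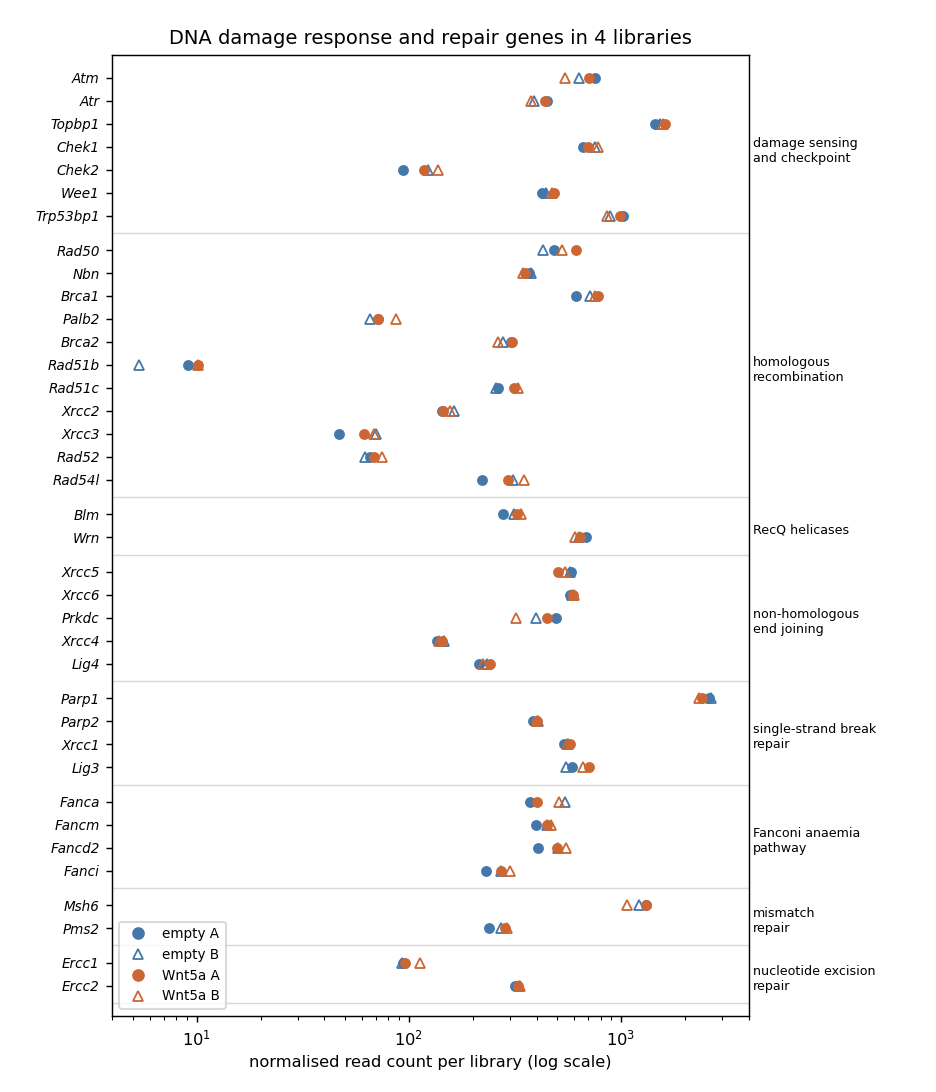
Normalised read count (log axis, not divided by length) of each of the 37 genes in the 4 libraries, grouped by role; blue is empty, orange is Wnt5a, filled circles are libraries A and open triangles libraries B. Parp1 is the highest, from 2332 to 2650, and Rad51b the lowest, from 5.35 to 10.1, and for most genes the 4 libraries sit close together.

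Differences between Wnt5a and empty were small throughout. On the log2(value + 1) scale, where a 2-fold change is 1, the 36 tested genes ranged from -0.23 (Prkdc) to 0.32 (Rad50), and all 36 lay within 0.35 of 0. The 95% interval of every one of the 36 differences lay between -0.65 and 0.69, so a 2-fold change in either direction lies outside all 36 intervals. Their median difference was 0.06, against 0.00 over all 12357 tested genes, with 25 positive (69.4%, against 50.7% of all tested genes) and 11 negative. By limma without the replicate block, 0 of 36 passed an adjusted p of 0.05, where 2.06% of all tested genes passed. At an unadjusted p under 0.05 there were 3 (Rad50, Rad51c and Lig3), where 16.1% of all tested genes passed. edgeR and DESeq2 on the recovered reads also called 0 at the adjusted threshold. The 2.06% is the share for limma alone. DESeq2 called more of all tested genes than limma did (count in the closing section), and the share for edgeR without the block is not given here. Because these are bulk samples, a lower value cannot be divided into fewer cells expressing a gene and less RNA per cell.

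Sample numbers are shared between the groups in the labels, and libraries of the same letter deviated together (r = 0.44 over genes). The model was therefore also fitted with the letter as a block, which compares A with A and B with B. With the block 5 of the 36 genes passed (13.9%), where 17.0% of all tested genes did. Rad50, Rad51c, Lig3 and Rad54l were higher in Wnt5a, 11.1% of the 36 against 8.68% of all genes, and Prkdc was lower, 2.78% against 8.27%. edgeR with the block called the same number, 5. Both Wnt5a libraries lay above both empty libraries for 12 genes (33.3%, against 22.7% of all genes) and below them for 3 genes (8.33%, against 21.5%). Pair A alone gave a median of 0.08 and pair B of 0.03. Of the 36 genes, 19 were higher in both pairs, 9 lower in both and 8 differed in sign. Over all 12357 tested genes these counts were 4511, 4282 and 3558.

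**Figure D2:**
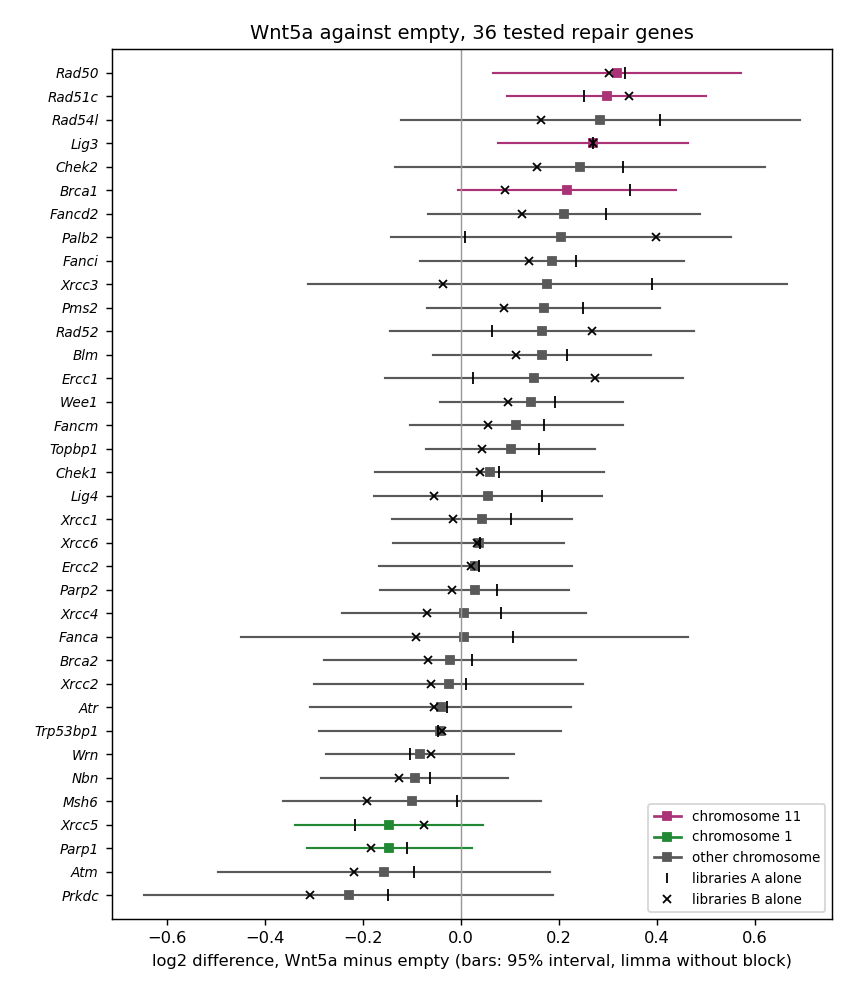
Log2 difference (Wnt5a minus empty) of the 36 tested genes; squares are the fitted differences with 95% intervals by limma without the block, vertical ticks the difference between libraries A alone and crosses that between libraries B alone, and colours mark chromosomes 11 and 1. The values run from -0.23 to 0.32; the intervals of Rad50, Rad51c and Lig3 exclude 0, and those of the other 33 include it.

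Among the sensing and checkpoint genes, 4 of 7 lay higher in Wnt5a, where 50.7% of all tested genes did, with a median of 0.06. None passed with or without the block, where 17.0% and 2.06% of all tested genes did. Chek2, the kinase downstream of Atm, differed most. It was at 93.8 and 122.5 (empty A and B) and at 118 and 136 (Wnt5a A and B). The groups overlap, the difference was 0.24 (SE 0.16), and the adjusted p was 0.550 by limma, or 0.121 with the block. Topbp1 lay at 1450 and 1532 in empty and 1619 and 1578 in Wnt5a, without overlap, for a difference of 0.10 (SE 0.07, adjusted p = 0.591 by limma). Wee1, which restrains entry into mitosis, was also above in both Wnt5a libraries, with 423 and 442 against 483 and 472. Chek1, the kinase downstream of Atr, was at 662 and 757 in empty and 699 and 778 in Wnt5a, a difference of 0.06.

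The kinases at the head of the response went with the library rather than the group. Atm was at 751 and 632 in empty A and B and at 703 and 542 in Wnt5a A and B, so that each B library was below both A libraries, and its difference was -0.16 (adjusted p = 0.688 by limma, 0.0922 with the block). Atr was at 448 and 390 in empty and 439 and 375.5 in Wnt5a, again with both B libraries lowest, and a difference of -0.04. Trp53bp1, the chromatin reader that favours end joining, had the same layout, with 1016 and 883 against 983.5 and 859.

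Homologous recombination had a median difference of 0.19, with 7 of its 10 tested genes above 0 and 3 passing with the block, where 17.0% of all tested genes did. Its genes Rad50, Rad51c and Brca1 lie on chromosome 11, and with each chromosome's median removed the group median was 0.14 and 0 passed. Rad50, the long coiled-coil subunit of the Mre11 complex that tethers broken ends, was the largest difference of the 36. It was at 484 and 427 in empty A and B and at 610 and 527 in Wnt5a A and B, and no empty sample (395 to 490, median 461) reached the lowest of the 8 Wnt5a samples (495 to 643, median 571). The difference was 0.32 (SE 0.11; 0.33 in pair A and 0.30 in pair B), with an adjusted p of 0.204 by limma and 0.00883 with the block.

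Rad51c, which acts in strand exchange with Rad51b, Xrcc2 and Xrcc3, was at 262 and 257 in empty and 311 and 326 in Wnt5a, without overlap in the libraries or in the samples (232 to 279 against 291 to 342). The difference was 0.30 (SE 0.09), with an adjusted p of 0.152 by limma and 0.0214 with the block. Rad54l, a motor protein that acts in strand exchange, was at 221 and 311 in empty and 293 and 348 in Wnt5a. Here the groups overlap, because empty B lay above Wnt5a A, and only within pairs was Wnt5a above empty each time (0.41 and 0.16). Its difference of 0.28 (SE 0.17) had an adjusted p of 0.507 by limma and 0.0457 with the block, and without empty B it was 0.53 with an adjusted p of 0.0147. It was 0.04 without empty A, so its size rests on single libraries.

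Brca1, which directs breaks to resection, was at 611 and 711.5 in empty and 777 and 757 in Wnt5a; the libraries do not overlap, and the difference of 0.22 (SE 0.09) had an adjusted p of 0.324 by limma and 0.0728 with the block. Palb2 was at 71.2 and 65.7 against 71.6 and 87.0 (difference 0.20, SE 0.15, adjusted p = 0.589 by limma), and nearly all of that came from pair B, at 0.40, with 0.01 in pair A. Rad52 was at 65.6 and 62.1 against 68.6 and 75.0 (difference 0.17, SE 0.13, adjusted p = 0.638 by limma). Xrcc3 was at 46.9 and 70.0 against 61.8 and 68.2, where empty A stands apart as the low library and the groups overlap (difference 0.18, SE 0.21, adjusted p = 0.770 by limma).

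Brca2, with an E2F match in its promoter, was at 302.5 and 277 in empty and 307 and 264 in Wnt5a, with overlapping groups and a difference of -0.02 (SE 0.11, adjusted p = 0.954 by limma; 95% interval -0.28 to 0.24). Xrcc2, which works beside Rad51c, gave -0.03, with 143 and 163.5 against 144 and 157. Nbn, the Mre11 complex subunit that recruits Atm, was below in both Wnt5a libraries (367 and 375 against 351.5 and 344), so that Rad50 and Nbn, subunits of the same complex, had differences of opposite sign, 0.32 and -0.09. Neither passed without the block, and Nbn did not pass with it (adjusted p = 0.319 by limma). Rad50 lies on chromosome 11, where the median of all tested genes was 0.17, and Nbn on chromosome 4, where it was 0.00. Mre11a, another subunit, was at 449 and 474 in empty and 450 and 434 in Wnt5a, a difference of -0.06 with overlapping groups.

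The RecQ helicases unwind recombination intermediates. Blm, which dissolves crossed strands, was at 279 and 312 in empty and 325 and 337 in Wnt5a, without overlap and with a difference of 0.16 (SE 0.09, adjusted p = 0.472 by limma, 0.124 with the block). Wrn, which also has an exonuclease, was at 685.5 and 633.5 against 637 and 607, a difference of -0.08. The groups overlap for Wrn, and neither gene passed.

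In non-homologous end joining 3 of 5 genes were above 0, with a median of 0.01. Prkdc, the catalytic subunit of the DNA-dependent protein kinase that aligns broken ends, had the largest negative difference of the 36. It was at 495 and 396 in empty A and B and at 446 and 319.5 in Wnt5a A and B. Wnt5a was lower within each pair (-0.15 and -0.31), but Wnt5a A lay above empty B, so the groups overlap. The difference was -0.23 (SE 0.18), with an adjusted p of 0.621 by limma and 0.0474 with the block, and it was 0.0097 when Wnt5a B was left out.

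The other end-joining genes showed little. Xrcc5 was at 584 and 575 in empty and 502 and 545 in Wnt5a, without overlap, for a difference of -0.15 (SE 0.08, adjusted p = 0.450 by limma, 0.131 with the block). Its partner Xrcc6, the Ku70 subunit, was at 576 and 588.5 against 592 and 602, a difference of 0.04. The ligase complex, Lig4 with its scaffold Xrcc4, gave 0.05 (214 and 232 against 240 and 223) and 0.01 (135 and 146 against 143 and 139), with overlapping groups.

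In single-strand break repair, Lig3, the ligase that seals nicks and also serves mitochondrial DNA, was at 586 and 548 in empty and 706 and 660.5 in Wnt5a. The 8 empty samples (516 to 621) did not overlap with the 8 of Wnt5a (634 to 743), though each set of 8 is only 2 libraries. Both pairs of libraries gave 0.27. The difference of 0.27 (SE 0.08) had an adjusted p of 0.169 by limma and 0.0126 with the block. Parp1 went the other way, with 2585 and 2650 in empty against 2394 and 2332 in Wnt5a. No Wnt5a sample of Parp1 (2266 to 2444) reached the lowest empty sample (2543). Its difference of -0.15 (SE 0.07) did not pass, with an adjusted p of 0.385 by limma and 0.0642 with the block.

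Xrcc1, which holds Lig3 at the break, was at 537 and 562 in empty and 576 and 556 in Wnt5a, a difference of 0.04 (SE 0.08, adjusted p = 0.866 by limma). Parp2, which shares the break-sensing role of Parp1, was at 383 and 406 against 403 and 401, a difference of 0.03. Lig3 and its partner therefore had differences of 0.27 and 0.04, and the difference between them was not tested. Lig3 lies on chromosome 11, where the median of all tested genes was 0.17, and Xrcc1 on chromosome 7, where it was -0.002.

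The 4 Fanconi anaemia genes had a median difference of 0.15. None passed with or without the block, where 17.0% and 2.06% of all tested genes did. By limma all 4 were positive, but Fanca, at 0.01, was negative by edgeR and DESeq2 (-0.012 and -0.013) and in pair B. Fancd2, which is ubiquitinated at DNA crosslinks, was at 408 and 503 in empty and 501 and 548 in Wnt5a, a difference of 0.21 (SE 0.12, adjusted p = 0.461 by limma, 0.0590 with the block). Fanci, its partner in the clamp, was at 231 and 272 against 272 and 300 (0.19), and Fancm, the translocase that recruits the core complex, at 396.5 and 447 against 446 and 465 (0.11). In each of the 3 genes both A and B were higher in Wnt5a than in empty. Fanca, a core complex subunit, was at 373 and 545 against 402 and 510.5; it differed far more between A and B than between the groups, where the value was 0.01.

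In mismatch repair, Msh6 was at 1314 and 1214 in empty and 1306 and 1063 in Wnt5a, with a difference of -0.10 (SE 0.11, adjusted p = 0.757 by limma). Pms2, a nuclease of this pathway, was at 237 and 272 against 282.5 and 289, without overlap and with a difference of 0.17 (SE 0.10, adjusted p = 0.50 by limma, 0.150 with the block). In nucleotide excision repair, Ercc1, part of the nuclease that cuts beside a lesion, was at 94.0 and 92.7 against 95.6 and 112, for a difference of 0.15 (SE 0.13, adjusted p = 0.669 by limma, 0.376 with the block). Ercc2, the helicase of transcription factor TFIIH, was at 318 and 329.5 against 326 and 334, a difference of 0.03.

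Of the 5 genes that passed with the block, 3 lie on chromosome 11, Rad54l on chromosome 4 and Prkdc on chromosome 16. Chromosome 11, with 1020 tested genes, had a median difference of 0.17 over all of them, and chromosome 1, with 689, had -0.17. The median of the 412 tested genes of chromosome 19, which holds none of the 37, was 0.36, and those of 17 other chromosomes lay between -0.02 and 0.02. All 4 of the repair genes on chromosome 11 (Rad50, Rad51c, Lig3 and Brca1) were positive, with a median of 0.28. With the block 3 of these 4 passed, where 37.1% of all genes on chromosome 11 did. Both genes on chromosome 1, Parp1 and Xrcc5, were at -0.15, within 0.03 of that chromosome's median. The 30 genes on other chromosomes had a median of 0.05 with 21 positive, and 2 passed with the block (6.67%, against 11.3% of all genes there). Of all 10236 tested genes not on chromosomes 1, 11 or 19, 5019 were positive, with a median of -0.003. Of the 85 other repair genes there, 61 were positive, with a median of 0.06.

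Subtracting from each gene the median of its own chromosome left 0 of 36 passing by limma, with the block or without, where 9.52% and 1.68% of all tested genes passed (edgeR and DESeq2 were not run on these values). At an unadjusted p under 0.05 there were then 11 with the block, where 26.0% of all tested genes passed, and 0 without it, where 11.5% did. Rad50 went from 0.32 to 0.15, Rad51c from 0.30 to 0.13 and Lig3 from 0.27 to 0.10. Parp1 and Xrcc5 went from -0.15 to 0.03, a change of sign. Whether the cells of the groups differ in chromosome number or in another way that follows chromosomes was not tested.

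**Figure D3:**
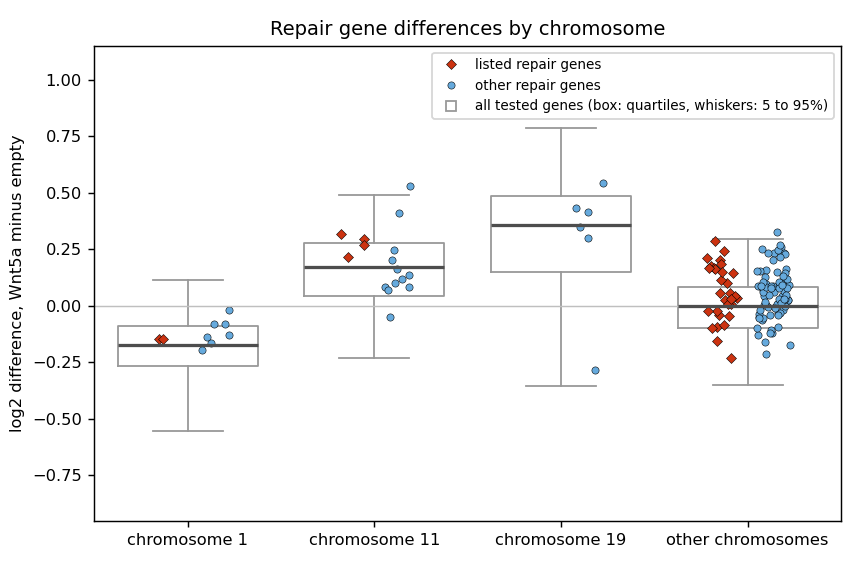
Log2 difference (Wnt5a minus empty) of the 36 tested repair genes (red diamonds) and of 110 other repair genes (blue circles) on chromosomes 1, 11, 19 and all others; boxes show the quartiles and whiskers the 5 to 95% range of all tested genes there. The red diamonds on chromosome 11 are all positive and those on chromosome 1 both negative, on the same side of 0 as the medians of all genes, 0.17 and -0.17.

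Libraries A and B of 1 group differed in these genes about as much as the groups did. The median absolute difference was 0.12 between B and A in empty and 0.12 in Wnt5a, against 0.15 between Wnt5a and empty. Over all 12357 tested genes these medians were 0.13, 0.11 and 0.11. B lay above A in both groups for 13 of the 36 genes, below A in both for 9, and 14 differed in sign. Over all 12357 tested genes these counts were 4366, 4446 and 3540. Rad54l (0.49 in empty and 0.25 in Wnt5a) and Fanca (0.54 and 0.34) were among those higher in B. Prkdc (-0.32 and -0.48) and Atm (-0.25 and -0.37) were among those lower in B. Across the 36 genes, the B minus A differences of the 2 groups had a Pearson correlation of 0.72 and a Spearman correlation of 0.66, against 0.44 and 0.53 over all tested genes; this is a description of 4 libraries over genes.

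Longer transcripts tended to be lower in B. The Spearman correlation of the B minus A difference with the length of the longest transcript was -0.33 in empty and -0.52 in Wnt5a across the 36 genes, and -0.27 and -0.35 over 12297 genes. Prkdc, the longest at 12650 bases, was the lowest of the 36 in B against A, while the difference between Wnt5a and empty had a Spearman correlation of -0.10 with length. Library preparation, RNA quality and culture differences between A and B were not tested.

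**Figure D4:**
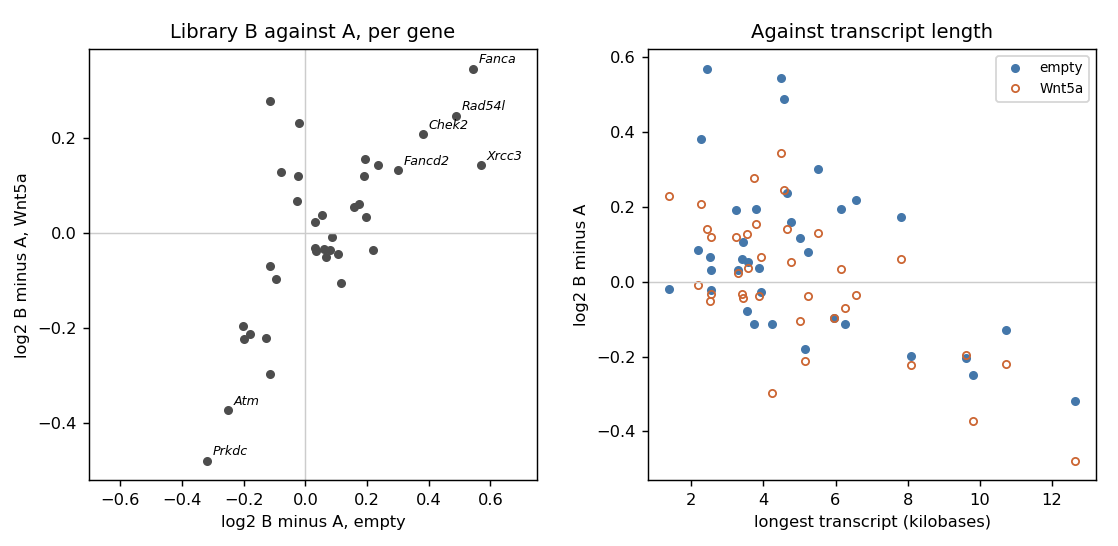
Left, log2 difference of library B minus library A in empty (horizontal) against Wnt5a (vertical) for the 36 tested genes, with names where either exceeds 0.3 in size; right, the same differences against the length of the longest transcript in kilobases, blue for empty and orange for Wnt5a. Fanca and Rad54l lie at the upper right and Prkdc and Atm at the lower left, so these genes differ between A and B in the same direction in both groups.

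Beyond the 37 genes, 111 of 112 other repair genes listed from general knowledge had a row, and 110 were tested; Atrip, the partner of Atr, was listed under 1 in every library. Their median difference was 0.07 with 77 of 110 positive (70.0%, against 69.4% of the 36 and 50.7% of all tested genes). By limma 0 passed without the block, with 14 at an unadjusted p under 0.05, a threshold that 16.1% of all tested genes passed; edgeR called 0 and DESeq2 called 1, Fen1. With the block 13 passed (11.8%, against 17.0% of all genes), 12 higher and 1 lower in Wnt5a. The median was -0.02 over the 10 genes of translesion synthesis and lesion reversal.

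Of these 13, 5 genes are named, chosen after their values were seen. Fen1, the flap nuclease, was at 297 and 355 in empty and 466 and 480.5 in Wnt5a, a difference of 0.54 (adjusted p = 0.0616 by limma, 0.00404 with the block), and lies on chromosome 19, where the median of all genes was 0.36. Eme1, which with Mus81 cuts branched DNA, was at 98.7 and 141 against 151 and 192 (0.53, adjusted p = 0.246 by limma, 0.00836 with the block) and lies on chromosome 11. Rad9a, part of the checkpoint clamp, was lower in Wnt5a (548 and 603.5 against 453 and 492; -0.28, adjusted p = 0.182 by limma, 0.0123 with the block) although it is on chromosome 19. Of the 13, 5 are on chromosome 19 and 3 on chromosome 11, and 4 passed with the block after the chromosome medians were removed: Cdc25b, Eme1, Rad9a and Timeless. Cdc25b (0.23) is a phosphatase that opposes Wee1, and Timeless (0.33) protects the replication fork.

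Many of these genes are transcribed with the cell cycle, so 20 proliferation markers were set beside them. The markers had a median difference of 0.07, with 13 of 20 positive; 0 passed without the block by limma and 7 with it (35.0%, against 17.0% of all tested genes), 5 higher and 2 lower. Of these 7, 3 lie on chromosome 11 and 1 on chromosome 1, where the medians of all genes were shifted. Their summed normalised counts were 50170 and 53286 in empty A and B and 54724 and 53357 in Wnt5a A and B, and those of the 37 repair genes were 17859 and 18207 in empty and 18647 and 18048 in Wnt5a. In both sums empty A was the lowest library and Wnt5a A the highest. The marker sum without Top2a, a topoisomerase on chromosome 11 left out after its values were seen, was 41926 and 44074 in empty and 43365 and 42384 in Wnt5a, and then empty B was the highest. The part of cell-cycle stage in the differences of the repair genes was not tested.

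Several of the genes share exons with a neighbour, and the strand setting of the counting is not given in the sources used here. In GENCODE M21, 6 of the 37 shared at least 10% of their exonic bases with a protein-coding gene on the opposite strand, so their counts are uncertain: Lig3 with Rffl (25.1%), Ercc2 with Klc3 (17.8%), Fanci with Polg (15.95%), Rad54l with Lrrc41 (15.4%), Trp53bp1 with Tubgcp4 (15.0%) and Fanca with Zfp276 (10.5%). For the genes that passed with the block, the neighbours did not: Rffl had a difference of 0.09 and Lrrc41 of -0.03, with adjusted p of 0.552 and 0.692 by limma with the block.

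Of the 30 genes with a promoter in the table, 11 start within 1000 bases of a tested gene on the opposite strand that points away, a divergent pair. The other genes of the 37, Prkdc and Rad50 among them, were not searched, nor were partners that were not tested. Brca1 (0.22) and Nbr1 (0.18, adjusted p = 0.0370 by limma with the block), both on chromosome 11, had differences of the same sign, as did Pms2 (0.17) and Aimp2 (0.24). Atm (-0.16) and Npat (-0.02), which feeds histone gene expression, differed in size. Xrcc3 (0.18) and Zfyve21 (-0.11) differed in sign, as did Lig4 (0.05) and Abhd13 (-0.01), and Xrcc6 (0.04) and Desi1 (-0.05). The sign was the same for Lig3 (0.27) and Gm11423 (0.78, at only 6.34 to 15.0 in the libraries) and for Palb2 (0.20) and Dctn5 (0.06). It was also the same for Rad54l (0.28) and 2510003B16Rik (0.04), and for Xrcc4 (0.01) and Tmem167 (0.13). Rad51b was not tested, and its partner Zfyve26 was at 0.06. None of the 11 partners passed without the block.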

How the data were processed

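The authors deposited 1 file per sample with a normalised signal value for each of 17655 genes; per the submitters' processing notes TopHat, Bowtie, HTSeq and DESeq2 were used, with no versions, and the build and annotation are not given in the sources used here. In every file all values were whole multiples of 1 step (tolerance 0.01), so whole reads were recovered (100% of values). Samples 1 to 4 and 5 to 8 of a group, with dispersion indices of 0.987 to 1.05 against 5.23 to 5.44 for other pairs, were averaged as libraries A and B. The 95% intervals come from limma and rest on the spread between libraries.

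Genes with a mean of at least 10 were tested with limma 3.58.1 (R 4.3.3, eBayes with trend) on log2(value + 1), which understates the change of low genes, with Benjamini-Hochberg adjustment over 12357 genes and a threshold of 0.05; the scripts were tested on simulated data. The replicate numbers come from the labels, and the block is the letter A or B. Deviations from the group means correlated between libraries of the same letter (r = 0.44), so the blocked fit is given too. They also correlated in all 8 same-numbered sample pairs (r of 0.175 to 0.220). Same-numbered samples always share a letter and differently numbered ones were not compared, so these 8 values cannot show pairing by number. An exact permutation test of 2 against 2 libraries cannot go below p = 0.333. edgeR 4.0.16 and DESeq2 1.42.0 were run on recovered reads. Chromosomes came from RefSeq (17620 symbols matched), lengths and exons from GENCODE M21; the coordinates printed are those of the RefSeq promoters (GRCm38.p6), since the files name no build.

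The members and all gene lists were chosen with earlier results of these data known. Named by rule were every member, and other repair genes passing without the block, of which there were 0; the other repair genes named were chosen after their values were seen. Fuller statistics go to members passing either fit, the largest difference of each role and the 5 highest and 5 lowest levels.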

Additional observations from a re-analysis of the deposited data

How the results depend on the processing

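Having 2 libraries per group limits what can be called, and the counts moved with the spread estimate. Of the 254 genes called by limma, the replicate block gave 2095 (all 254 among them), no filter 146, a minimum of 50 gave 102, eBayes without trend 158, DESeq2 538 and edgeR with the block 2123. Counting the 16 samples separately gave 4377, or 6012 with the block, which treats samples of 1 library as replicates. The block with chromosome medians removed, added after the data were examined, gave 1177, and leaving out 1 library gave 138 to 1098. In the next counts, the number over all 12357 tested genes follows in brackets. Of the 36 repair genes, limma called 0 (254), the block 5 (2095) and edgeR with the block 5 (2123). The 16 separate samples gave 14 (4377), and these with the block 19 (6012). Leaving out 1 library gave 0 to 1 (Rad54l without empty B). Of the 110 other repair genes, limma called 0 (254), the block 13 (2095) and edgeR with the block 13 (2123). The 16 separate samples gave 33 (4377), these with the block 47 (6012), and DESeq2 1 (538). Removing chromosome medians gave 1 by limma, where 1.68% of all tested genes passed, or 4 with the block, where 9.52% did.

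The median of the 36 was 0.033 to 0.13 with 1 library left out. Over 14 settings that kept all libraries, 454 of the single-gene differences kept their direction and side of the threshold, 43 passed it (all with the block or 16 separate samples) and 7 reversed. The reversed ones were Parp1 at 0.026 and Xrcc5 at 0.027 with chromosome medians removed (with and without the block), Xrcc4 at -0.016 under quantile normalisation, and Fanca at -0.012 by edgeR and -0.013 by DESeq2. With 1 library left out, 13 genes changed sign: Atm (-0.34 to 0.028), Atr (-0.15 to 0.070), Chek1 (-0.039 to 0.15), Trp53bp1 (-0.15 to 0.058), Brca2 (-0.13 to 0.087), Xrcc2 (-0.12 to 0.070), Xrcc3 (-0.11 to 0.46), Prkdc (-0.47 to 0.0097), Xrcc4 (-0.047 to 0.060), Lig4 (-0.0032 to 0.11), Parp2 (-0.015 to 0.070), Fanca (-0.27 to 0.28) and Msh6 (-0.25 to 0.048). The replicate block changed no call of the 36 beyond Rad50, Rad51c, Lig3, Rad54l and Prkdc; causes were not tested.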
